A study of Mus musculus with 5 samples.

Results

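Short circular RNAs of the mouse testis were described: circRNAs with a host gene whose deposited end lay less than 1000 bases beyond the deposited start. Of 11957 circRNAs, 10359 carried a host gene, and 466 of these met the span limit (4.50%). The other 9893 host-gene circRNAs spanned 1000 bases or more, and 62 circRNAs under 1000 bases were left out because no host gene was listed. The treated animals were male C57BL/6J mice, 10 weeks old, that received triptolide, a diterpenoid of the thunder god vine, through a stomach tube at 50 µg per kg each day. The control animals, of the same strain, sex and age, received saline. The treatment lasted 35 days before the testes were collected, with 6 mice named for each group in the labels. The data hold 3 triptolide libraries and 2 control libraries of whole testis. Whether a library holds 1 animal or a pool is not stated, and the p-values cover the spread among these 5 libraries, which may be technical. The triptolide libraries carry no number in the circRNA table and are called A, B and C here.

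A circRNA forms when the spliceosome joins the donor at the end of an exon back to an acceptor upstream of it, a reaction called back-splicing. The closed ring has no free end, resists exonucleases and can outlast the linear messenger of the same gene. A read that crosses the back-splice junction is what identifies the ring, and the span on the genome is the distance between the joined edges, introns included. Span is therefore not the length of the RNA, and the exons inside a circle were not analysed here. Testis makes many circRNAs, with germ cells as a main source.

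The sequence that the machinery reads at the start of a circle is the splice acceptor, and 3 short circRNAs had theirs inside a RefSeq promoter window (build GRCm38.p6). They are shown because the deposited edge in each directly follows the letters of a splice acceptor. Each stretch runs 5′ to 3′ on the strand of the gene, with 20 bases before the circle and the first 10 bases of it, and capitals mark the AG that ends an intron. Acacb encodes an acetyl-CoA carboxylase, Atp2b4 a plasma membrane calcium pump and Lats2 a kinase of the Hippo pathway. The windows lie at chr5:114165489-114165518 on the plus strand for Acacb, at chr1:133753740-133753769 on the minus strand for Atp2b4, and at chr14:57734409-57734438 on the minus strand for Lats2.
Acacb: actctctcttcccttgacAGgttgcctgaa
Atp2b4: tttttgcatctctattccAGaggcctagcc
Lats2: tgtcccattttctttttcAGagagtgatgg
All 3 have AG directly before the circle, after a stretch rich in c and t. Over all host-gene circRNAs, 109 acceptor edges fell in such windows and 109 had AG there, where AG made up 7.56% of all dinucleotides on both strands of 32851 windows. For the donor edge, the letters GT followed 16 of 21 circles, against 4.90% of dinucleotides, and no short circRNA had its donor edge in a window. No circRNA caller is named, so whether the calling itself required these letters is not known. The Atp2b4 circle is also among those with values that did not overlap between the groups, given further on, and the Acacb circle was listed in triptolide C alone, at 26 SRPBM. The Lats2 circle had 28, 17 and 34 SRPBM in triptolide A, B and C, against 0 and 33 SRPBM in control 1 and 2.

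Abundance is given as SRPBM, the authors' score for junction reads after scaling to the depth of mapping. Every value was a whole number of reads times a step fixed for the library, which lay between 8.29 and 9.57 SRPBM per read. The tables corresponded to 32804, 44318 and 35323 junction reads in triptolide A, B and C, against 39999 and 43680 in control 1 and 2. Short circRNAs held 1101, 1644 and 1042 of those reads in the triptolide libraries, against 1200 and 1123 in the control libraries. The smallest value above 0 was 2 reads in each library, and a 0 is therefore written as "listed at 0".

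Control 1 stood apart in its zeros. Among the other host-gene circRNAs above 60 SRPBM in all 4 remaining libraries, 92 of 524 (17.6%) were listed at 0 in control 1. In triptolide A, B and C the same count was 4 of 452, 2 of 424 and 2 of 459, against 2 of 433 in control 2. Among short circRNAs, 2 of 15 (13.3%) were at 0 in control 1, those of Stk35 and Bbs9, and none of 13 to 16 in any of the remaining libraries. Results that rest on control 1 are therefore given with and without it. The average fragment length implied by the deposited mRNA table also moved with the groups. It was 260 ± 3.7 bases in triptolide (SD, n = 3) and 283 ± 8.1 bases in control (SD, n = 2), without overlap, and its part in the results on circRNA detection was not tested.

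**Figure D1:**
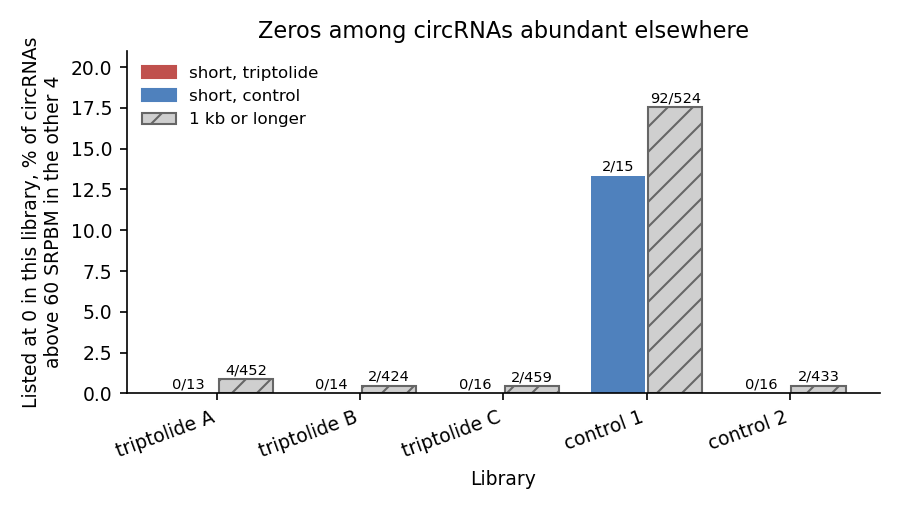
Share of circRNAs listed at 0 in 1 library although above 60 SRPBM in each of the 4 remaining ones (y axis, percent), by library, for short and for other host-gene circRNAs. Control 1 lies at 13.3% for short and 17.6% for other circRNAs, and the remaining libraries lie under 1%.

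The tissue label was set against the host genes. Of 36 meiotic prophase genes 16 hosted a circRNA of any span, and of 40 spermatid genes 10 did. No circRNA came from 16 Sertoli cell genes, 7 peritubular cell genes or 7 endothelial genes, while 1 of 11 Leydig cell genes and 2 of 8 macrophage genes hosted any. Transcripts of the mRNA table come without gene names, so cell type markers were counted only through circRNA hosts.

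Most short circRNAs were rare, and a few carried much of the signal. The median of their mean over the 5 libraries was 7 SRPBM, against 8.2 SRPBM for the other host-gene circRNAs. The highest mean was 657 SRPBM among short circRNAs and 9489 SRPBM among the others. Means above 50 SRPBM occurred for 41 short circRNAs (8.80%) and for 1180 others (11.9%). Means above 100 SRPBM occurred for 17 short circRNAs (3.65%) and for 515 others (5.21%). The signal was concentrated, since the 10 most abundant held 35.2% of the summed SRPBM of short circRNAs, where the top 10 of the other class held 10.8% of theirs.

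The circle from Stk35, which encodes a protein kinase, ranked first and spanned 749 bases at chr2:129810488-129811237. It had 794, 974 and 670 SRPBM in triptolide A, B and C, against 0 and 845 SRPBM in control 1 and 2. It was thus high in 4 libraries and listed at 0 in control 1. It made up 98.7% of all circRNA signal of its gene. The second was a circle of 373 bases from Gm9762, a RefSeq pseudogene, at chr3:78966402-78966775. It had 765, 735 and 635 SRPBM in triptolide libraries, against 527 and 588 SRPBM in control libraries. All 3 triptolide values were above both control values, and this was the steadiest circle of those seen in 5 libraries, with a highest value 1.45 times the lowest. Reads of a pseudogene and its parent gene cannot be told apart here.

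The circle of Pwwp2a, which encodes a chromatin reader, had 669, 584 and 409 SRPBM in triptolide libraries, against 747 and 472 SRPBM in control libraries. It spanned 943 bases and held 89.2% of the signal of its gene, which made 5 circles. The circle of Alg12, an enzyme that adds mannose during N-glycan assembly, had 507, 434 and 261 SRPBM in triptolide libraries, against 527 and 439 SRPBM in control libraries. For both of these circles the groups overlapped. The Alg12 circle was the only one of its gene and covered 6.12% of it, at 862 bases. The circle of Zfp609, a zinc finger gene whose human counterpart makes a well-studied circRNA, had 143, 310 and 139 SRPBM in triptolide libraries, against 246 and 190 SRPBM in control libraries. It held 73.1% of the signal of a gene with 5 circles, and its groups overlapped too.

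Other abundant short circles were minor products of genes with many circles. That of Atf2, a stress-responsive transcription factor, spanned 936 bases and had 334, 478 and 226 SRPBM in triptolide libraries, against 334 and 323 SRPBM in control libraries. It ranked 2 among 15 circles of the gene, with 24.2% of their signal, and the longer circles of Atf2 summed to 818, 1209 and 918 SRPBM in triptolide libraries, against 1086 and 1281 SRPBM in control libraries. Both quantities overlapped between the groups. The circle of Bbs9, a subunit of the BBSome that carries cargo in cilia, spanned 415 bases at chr9:22887581-22887996, or 0.101% of the gene. It had 267, 478 and 261 SRPBM in triptolide libraries, against 0 and 190 SRPBM in control libraries. It ranked 6 among 20 circles with 1.54% of their signal. The longer Bbs9 circles, which summed to 11233, 13983 and 11979 SRPBM in triptolide libraries and to 24194 and 14984 SRPBM in control libraries, were lower in all 3 triptolide libraries than in both controls, so the short circle and the sum of the longer ones lay in opposite orders.

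A pair of related RNA-binding proteins of the ataxin family also supplied members of the top 10. The Atxn2l circle of 510 bases at chr7:126493164-126493674 had 239, 274 and 174 SRPBM in triptolide libraries, against 343 and 190 SRPBM in control libraries. The Atxn2 circle spanned 999 bases at chr5:121802081-121803080 and had 153, 292 and 156 SRPBM in triptolide libraries, against 299 and 124 SRPBM in control libraries. Both overlapped between the groups. Below the top 10, 7 further circles had means above 100 SRPBM, which were picked out after their values were seen. They came from Fam160b1, Kat6b, Dis3l, Cdyl, Nfix, Prpf6 and Zbtb10, with values from 41 to 220 SRPBM, and were above 0 in every library. Kat6b encodes a histone acetyltransferase, Dis3l an exonuclease of the cytoplasmic exosome, Cdyl a chromodomain protein, Nfix a transcription factor and Prpf6 a spliceosome protein.

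**Figure D2:**
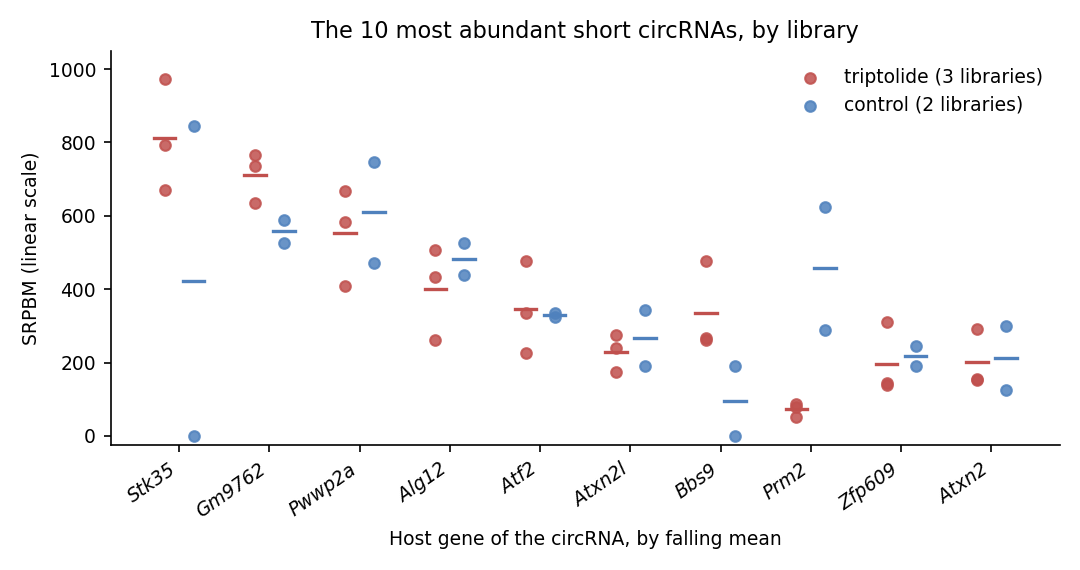
SRPBM of the 10 most abundant short circRNAs (y axis, linear scale) by host gene (x axis), with triptolide libraries left of control libraries. Each point is 1 library and each bar the mean of the group. Stk35 and Bbs9 have a control library at 0, and Prm2 lies at 52 to 86 SRPBM in triptolide, against 624 and 290 SRPBM in control.

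Detection was uneven. Of the 466 short circRNAs, 275 (59.0%) were above 0 in 1 library, 75 in 2, 33 in 3, 37 in 4 and 46 (9.87%) in all 5. Among the other host-gene circRNAs, 52.9% were above 0 in 1 library and 12.7% in all 5. The 46 seen in every library held 51.8% of the summed SRPBM of short circRNAs. Their means ran from 26.2 to 650 SRPBM with a median of 69 SRPBM. Within a circle the highest library was 2.67 times the lowest at the median and 12 times for Prm2. The 275 seen in 1 library held 13.8% of the sum, and 219 of them rested on at most 3 reads. The highest value among them was that of a circle of 311 bases from Rsph1, which encodes a radial spoke protein of the sperm tail. It had 460 SRPBM in triptolide B, corresponding to 52 reads, and was listed at 0 in triptolide A and C and in both control libraries.

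Measured within each library, detected short circRNAs were less abundant than detected longer ones. Their mean was 61.9, 61.2 and 53.9 SRPBM in triptolide A, B and C, and 63.5 and 55.9 SRPBM in control 1 and 2. The mean of the other host-gene circRNAs was 71.6, 72.3 and 70.2 SRPBM in triptolide libraries, and 80.5 and 68.4 SRPBM in control libraries. The difference, short minus other, averaged -13.4 ± 3.20 SRPBM (SD, n = 5), was negative in 5 of 5 libraries and ran from -17.0 to -9.75 SRPBM. Its two-sided exact sign-flip permutation p over libraries was 0.0625, the smallest that 5 libraries allow. The medians of detected circRNAs did not separate in the same way, with a mean difference of -5.6 SRPBM (exact p = 0.25). The share of the class above 0 was 36.3%, 50.6% and 35.8% for short circRNAs in triptolide libraries, and 35.4% and 35.4% in control libraries. For the other class it was 38.9%, 47.5% and 39.2% in triptolide libraries, and 39.0% and 47.2% in control libraries. The short share was lower in 4 of 5 libraries (mean difference -3.63 percentage points, exact p = 0.1875). Triptolide B was the exception.

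Spans ran from 101 to 999 bases, with a median of 555 and quartiles of 395 and 757 bases, against a median of 16456 bases in the other class. Very short circles were few and rare. From 100 to 200 bases there were 16 circles with a median mean of 3.6 SRPBM, 12.5% of them in at least 2 libraries, and none had a mean above 50 SRPBM. From 200 to 400 bases there were 103, with a median of 5.2 SRPBM and 30.1% in at least 2 libraries. The bins of 400 to 600, 600 to 800 and 800 to 1000 bases held 138, 109 and 100 circles, with medians of 8.2, 6.6 and 8.5 SRPBM. Their shares seen in at least 2 libraries were 44.2%, 43.1% and 50%. Detection in several libraries was thus lowest in the shortest bin and highest in the longest, and no test was made across bins.

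The 3 shortest circles came from Rnf121 at 101 bases, Iqcf3 at 104 bases and Pcm1 at 114 bases. Rnf121 and Iqcf3 were listed in triptolide B alone at 17 and 35 SRPBM, and Pcm1, a gene of centriolar satellites, in triptolide A alone at 38 SRPBM. At the other end, Atxn2 and Hmgxb3 spanned 999 bases and Chd9 996 bases. Hmgxb3 was listed in triptolide A alone at 47 SRPBM and Chd9 in triptolide C alone at 17 SRPBM. The nearest circles past the limit were those of Gkap1 at 1001 bases and of Utp20 and E2f5 at 1003 bases. Utp20, a ribosome biogenesis gene, had 162, 186 and 130 SRPBM in triptolide libraries, against 202 and 174 SRPBM in control libraries. Gkap1 had 19, 35 and 0 SRPBM in triptolide libraries, against 0 in both control libraries, and E2f5 had 28, 44 and 26 SRPBM in triptolide libraries, against 17 and 0 SRPBM in control libraries.

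**Figure D3:**
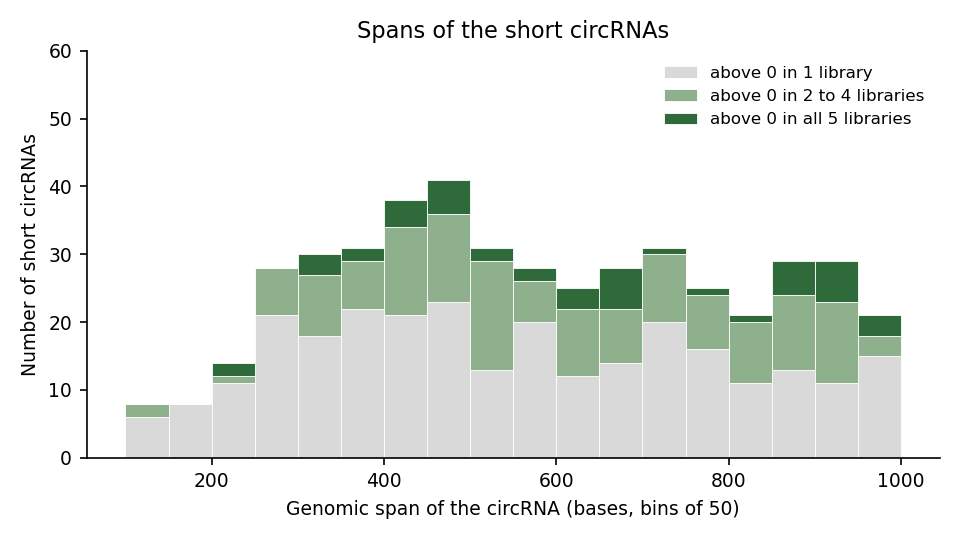
Number of short circRNAs (y axis) by genomic span in bases (x axis), stacked by whether they were above 0 in 1 library, in 2 to 4 or in all 5. The 16 circles under 200 bases include none seen in all 5 libraries, and the 46 seen in all 5 are spread from the 200-base bins upward.

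The 466 circles came from 444 host genes or joined host symbols, of which 424 made 1 short circle, 18 made 2 and 2 made 3. RefSeq listed 432 of the hosts, with 416 protein-coding genes, 9 lncRNA genes and 7 pseudogenes. For the other class it listed 3224 hosts, with 3127 coding genes, 84 lncRNA genes and 13 pseudogenes. At the median, short circles lay on a small part of their gene. Their hosts had a median length of 53682 bases, against 69358 bases for hosts of the other class, and the median circle covered 1.09% of its gene, against 17.1%, a difference that the span limit itself sets in part. Of the 453 members whose host was matched, 449 (99.1%) lay inside it. Chromosomes 2, 7 and 11 carried most, with 40, 36 and 35 circles, and X carried 6.

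Edges shared with a neighbouring circle were listed for a smaller part of the short circles. At least 1 edge was also used by another circRNA for 161 of the 466 (34.5%), against 7011 of 9893 others (70.9%). Among circRNAs above 0 in all 5 libraries the counts were 19 of 46 (41.3%), against 1099 of 1252 (87.8%). For 202 short circles (43.3%) the gene listed no further circle, against 1487 of the others (15%). Such a circle has no other circle of its gene to share an edge with, and the shares of shared edges were not adjusted for this. Where a gene had several, the short circle was the most abundant for 85 of 264 (32.2%), against 1787 of 8406 others (21.3%). That share falls as a gene makes more circles, and it was not adjusted for their number. A longer circle enclosed 188 short ones (40.3%), against 5491 of the others (55.5%). These shares are descriptions without a test, since circles of a gene share their source.

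Host genes with several short circles differed in how the circles lay. Ep300, a histone acetyltransferase gene on chromosome 15, made 3 at separate places, with spans of 898, 637 and 444 bases. The Ep300 circle of 898 bases had 47, 26 and 87 SRPBM in triptolide libraries, against 17 and 58 SRPBM in control libraries. The remaining Ep300 circles were also low, between 24 and 95 SRPBM where listed, and both were at 0 in control 1. Sbf1, a gene of the myotubularin-related family, also made 3, none above 35 SRPBM, and a pair of them shared their end on chromosome 15. Ccdc40, which sets the regular spacing of the ciliary axoneme, made 2. The Ccdc40 circle of 691 bases had 66, 124 and 95 SRPBM in triptolide libraries, against 87 and 49 SRPBM in control libraries, so the groups overlapped. The second Atxn2l circle, of 121 bases, shared its end with the larger one.

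The Sbf1 pair enclosed a RefSeq miRNA locus, the only mature miRNAs of the RefSeq table found inside short circles. They are printed with the seed, bases 2 to 8, in capitals. The circle of 949 bases was listed in control 1 alone at 26 SRPBM, and that of 749 bases in triptolide B at 35 SRPBM and in control 2 at 16 SRPBM.
mmu-miR-6959-3p: cUGCACCGaccugcucucccag
mmu-miR-6959-5p: uGGGAAACcugugucgggcugug
The seeds of both arms differ. The location describes the span on the genome and does not say that the circle holds the miRNA.

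Non-coding hosts were few. Besides Gm9762, the most abundant was Pvt1, the lncRNA gene next to Myc, whose circle had 86, 177 and 52 SRPBM in triptolide libraries, against 35 and 107 SRPBM in control libraries. Platr28, which RefSeq did not match but the deposited lncRNA table lists, had a circle with 86, 53 and 0 SRPBM in triptolide libraries, against 79 and 82 SRPBM in control libraries. The circle of the transcribed pseudogene Gm5893 had 28, 35 and 0 SRPBM in triptolide libraries, against 43 and 0 SRPBM in control libraries. In all 3, the groups overlapped. A transcript of the deposited lncRNA table overlapped 31 short circles (6.65%) and 1079 of the others (10.9%).

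Short circles were then counted over testis gene lists, beside the 4.50% that they made up of all host-gene circRNAs. The axoneme and flagellum list held 58 genes, of which 46 hosted 373 circRNAs, and 9 of these circles were short (2.41%). They came from Bbs9, Dnah8, Rsph1, Ccdc40, Ccdc108, Ttll5, Cfap70 and Cfap74. The Dnah8 circle, from a dynein heavy chain gene of the sperm tail, had 95, 88 and 52 SRPBM in triptolide libraries, against 184 and 74 SRPBM in control libraries. Of 40 spermatid genes, 10 hosted 51 circRNAs and 4 were short (7.84%), from Prm2, Spata16 and Hook1. Of 36 meiotic prophase genes, 16 hosted 77 circRNAs and 1 was short (1.30%), that of Brca2 at 17 SRPBM in triptolide B alone. The list of 37 genes known for conserved circRNAs had 30 hosts with 161 circRNAs, 9 of them short (5.59%). These lists describe the hosts and do not stand for separate measurements of the cells.

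Chromatin and germline RNA genes gave a few more. The list of 29 spermatid chromatin genes had 16 hosts with 81 circRNAs, of which 6 were short (7.41%), among them those of Prm2, Cdyl and Setd2. The piRNA list of 22 genes had 15 hosts with 62 circRNAs, and 2 were short (3.23%). One of these came from Tdrd7, a germ granule gene, with 28, 53 and 26 SRPBM in triptolide libraries, against 52 and 0 SRPBM in control libraries. In the list of 53 ubiquitin genes, 37 hosted 137 circRNAs and 6 were short (4.38%). In that of 23 genes that regulate circRNAs, 6 hosted 16, and 2 were short. The spermatogonial list of 15 genes had 3 hosts and 1 short circle, from Etv5 in triptolide A alone. No short circle came from the 21 genes of TFIIH and RNA polymerase II, which include the known target of triptolide, but only 3 of these hosted circRNAs, 6 of any span. None came from 18 genes of p53 and apoptosis either, of which 4 hosted 16 circRNAs. These numbers are too small for an absence to be read.

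Triptolide was then set against control across the whole table. No short circRNA passed the threshold. With limma on log2(SRPBM + 16) over 5457 circRNAs above 0 in at least 2 libraries, 0 of 191 tested short circRNAs had a Benjamini-Hochberg adjusted p under 0.05, and 0 of all 5457 did (0.0%). The smallest adjusted p was 0.68. At an unadjusted p under 0.05 there were 9 short circRNAs, 5 higher (2.62%) and 4 lower (2.09%) in triptolide, or 4.71% of those tested. The background was 6.6% of all tested, 1.8% higher and 4.8% lower. The values of 20 short circRNAs were higher in every triptolide library than in both controls (10.5%), where the background was 6.78%. Those of 12 were lower (6.28%), where the background was 10.5%. Of the 20 higher ones, 13 were at 0 in control 1, and 7 of these were above 0 in control 2. With control 2 as the lone control library, 43 of 164 short circRNAs were higher in every triptolide library (26.2%) and 23 were lower (14.0%), beside backgrounds of 14.7% and 23.6%. For circRNAs above 0 in all 5 libraries, these counts were 6 higher (13%) and 5 lower (10.9%) of 46 short ones, beside backgrounds of 8.33% and 13.5%.

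The median log2 fold change of tested short circRNAs was 0.04, with quartiles of -0.33 and 0.75, beside -0.06 over all circRNAs tested. Without control 1 it was 0.19, beside -0.19 over all tested. The fold change was above 0 for 100 short circRNAs (52.4%), where the background was 45.7%. Without control 1 it was above 0 for 93 (56.7%), where the background was 42.5%. To compare the span classes over libraries, the mean log2(SRPBM + 16) of tested short circRNAs less that of tested others was taken. It was -0.04, 0.12 and -0.13 in triptolide libraries, against -0.10 and -0.29 in control libraries, and the groups overlapped. The means were -0.02 ± 0.13 in triptolide (SD, n = 3) and -0.19 ± 0.13 in control (SD, n = 2). The difference of 0.18 gave p = 0.3 (two-sided exact permutation over libraries). Without control 1 the difference was 0.27, with an exact p of 0.25, the smallest then possible.

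The class as a whole took 3.35%, 3.71% and 2.95% of the summed SRPBM in triptolide libraries, against 3.0% and 2.57% in control libraries. The groups overlapped through triptolide C. The means were 3.34 ± 0.380% (SD, n = 3) and 2.78 ± 0.304% (SD, n = 2), with an exact permutation p of 0.3. Without control 1 the difference was 0.768 percentage points, in place of 0.553, and the p was 0.25, the smallest then possible. The number of short circRNAs above 0 was 169, 236 and 167 in triptolide libraries, against 165 and 165 in control libraries. All 3 triptolide counts were above both controls, but 2 of them only by 2 to 4, and the exact p was 0.5 for means of 191 ± 39.3 and 165. Without triptolide B the difference was 3. As a share of all detected circRNAs, short ones made up 3.72%, 4.19% and 3.67% in triptolide libraries, against 3.66% and 3.01% in control libraries. These shares did not overlap, by a narrow margin, with means of 3.86 ± 0.285% (SD, n = 3) and 3.33 ± 0.459% (SD, n = 2), and the exact p was 0.1, the smallest that 3 libraries against 2 allow. The margin lay at control 1, and without it the difference was 0.850 percentage points, in place of 0.525, with an exact p of 0.25, again the smallest then possible.

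**Figure D4:**
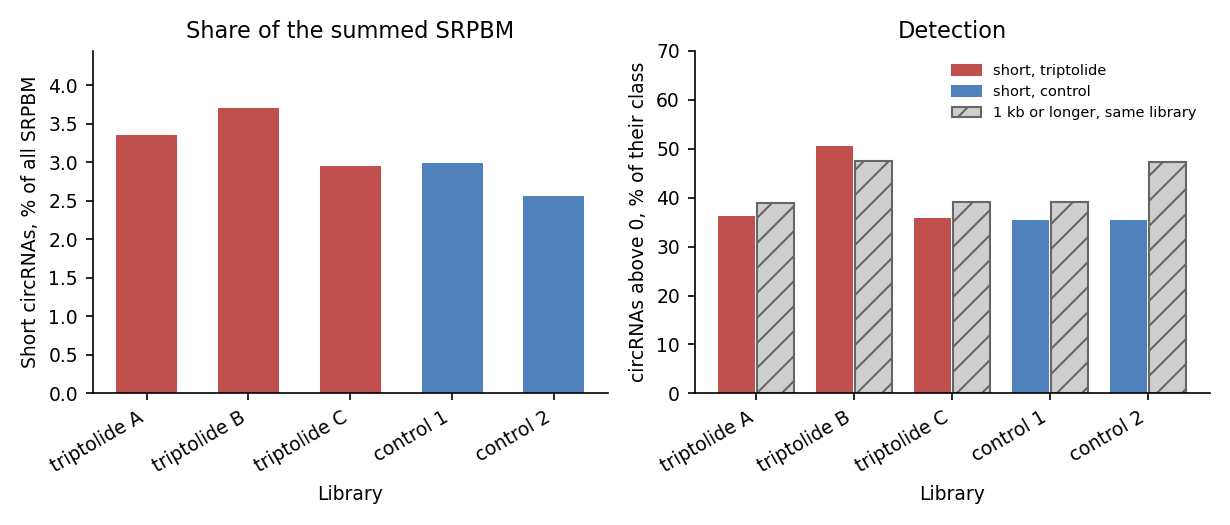
Left, short circRNAs as percent of the summed SRPBM of each library; right, percent of the class above 0 for short circRNAs and, hatched, for those spanning 1000 bases or more. The share of SRPBM is 2.95% to 3.71% in triptolide, against 3.0% and 2.57% in control, and triptolide B has the highest short share above 0, at 50.6%.

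The circle of Prm2 had the lowest log2 fold change of the tested short circRNAs with the constant of 16. With a constant of 1, Prm2 was at -2.57 and 6 named circles with zeros in triptolide libraries were lower, down to -5.07 for Ino80. Prm2 encodes protamine 2, which packs sperm DNA as spermatids mature, and its messenger is made in late germ cells. The circle spanned 452 bases at chr16:10791405-10791857, or 62.0% of the gene. It had 86, 79 and 52 SRPBM in triptolide A, B and C, against 624 and 290 SRPBM in control 1 and 2. The means were 72.3 ± 18 SRPBM in triptolide (SD, n = 3) and 457 ± 236 SRPBM in control (SD, n = 2), without overlap. The log2 fold change was -2.35 ± 0.44 (SE), with an unadjusted limma p of 0.000772 and an adjusted p of 0.68, so it was not past the threshold. It was -1.81 without control 1, so the order of the groups does not rest on that library. When only the 1404 circRNAs above 0 in all 5 libraries were fitted, the adjusted limma p was 3.4e-05. The fold change was the same there, with an SE of 0.42 in place of 0.44. The lower p came with the variance that limma pooled over the circRNAs fitted, not with other values of Prm2. In that fit Prm2 was the 1 short circRNA past the threshold (2.17% of the short ones), beside 0.0712% of all. A second Prm2 circle with the same start and an end 3 bases nearer was listed in control 1 alone, at 79 SRPBM. In whole testis, fewer cells of a type and less RNA per cell cannot be told apart.

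The larger positive fold changes of Stk35 and Bbs9 rested on control 1. For Stk35 the log2 fold change was 2.80 ± 1.36 (SE) with all libraries and -0.07 without control 1. For Bbs9 it was 2.56 ± 0.94 with all libraries and 0.72 without control 1, when the 3 triptolide values of 267, 478 and 261 SRPBM stood against 190 SRPBM in control 2. With 1 in place of 16 as the added constant they were 4.79 and 4.55, and with 64 they were 1.85 and 1.6, so their size depends on that constant. Neither passed the threshold with all libraries and the filter above. With no filter on low values the SE of Stk35 was 0.41, although its control values were 0 and 845 SRPBM. Stk35, Bbs9 and Prm2 then passed with unchanged fold changes (0.644% of short circRNAs), beside 0.301% of all. The same 3 passed without control 2 (1.83%), beside 2.85% of all, when control 1 was the lone control library and was taken to vary like the triptolide libraries. Without control 1, 0 short circRNAs passed, beside 0.0421% of all.

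The remaining abundant circles had small fold changes. Gm9762 averaged 712 ± 68 SRPBM in triptolide (SD, n = 3) and 558 ± 43 SRPBM in control (SD, n = 2), a log2 fold change of 0.34 ± 0.26 (SE). The fold changes of Pwwp2a, Alg12, Atf2, Zfp609, Atxn2 and the larger Atxn2l circle lay between -0.30 and 0.01, each smaller than its standard error. Nfix and Prpf6 were higher in every triptolide library than in both controls, outside the naming rule and picked out after their values were seen. Nfix had 153, 124 and 113 SRPBM in triptolide libraries, against 87 and 99 SRPBM in control libraries. Prpf6 had 124, 124 and 130 SRPBM in triptolide libraries, against 79 and 99 SRPBM in control libraries. Fam160b1, picked out in the same way, was lower in every triptolide library, with 105, 159 and 165 SRPBM, against 167 and 174 SRPBM in control libraries. None of these passed the adjusted threshold.

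Among circles with lower values, that of Atp2b4, the calcium pump whose acceptor is printed above, had 57, 132 and 95 SRPBM in triptolide libraries, against 26 and 41 SRPBM in control libraries. The groups did not overlap, with a log2 fold change of 1.12 ± 0.51 (SE), and the adjusted p did not pass. Setd2, a histone methyltransferase gene needed in spermatid development, lay in the opposite order. Its circle had 28, 17 and 52 SRPBM in triptolide libraries, against 79 and 66 SRPBM in control libraries, with a log2 fold change of -0.93 ± 0.56. Fam208b had 19, 26 and 0 SRPBM in triptolide libraries, against 43 and 74 SRPBM in control libraries. The 121-base Atxn2l circle had 0, 26 and 17 SRPBM in triptolide libraries, against 52 and 49 SRPBM in control libraries. These 3 circles had lower values in all triptolide libraries than in both controls, at a level of few reads.

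Several circles were listed in 1 group alone. At 0 in both controls and above 0 in every triptolide library were 6 short circRNAs (3.14% of those tested), beside 122 of all tested (2.24%). Ak1, an adenylate kinase gene, had 57, 26 and 60 SRPBM in triptolide libraries, against 0 in both control libraries. Tmed6, of a family that sorts cargo in the secretory pathway, had 28, 62 and 52 SRPBM in triptolide libraries, and Eif3c, a translation initiation subunit, had 76, 35 and 26 SRPBM, each against 0 in both control libraries. Ash1l, a histone methyltransferase gene, had 38, 26 and 52 SRPBM in triptolide libraries, against 0 in both control libraries. Hook1, a gene of the manchette that shapes the spermatid head, and Arih2, a ubiquitin ligase gene, made up the 6 with 17 to 28 SRPBM in triptolide libraries. These values correspond to few reads, and control 1 also lacked circles that were abundant elsewhere.

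In the opposite order, 3 short circRNAs were at 0 in every triptolide library and above 0 in both controls (1.57% of those tested), beside 207 of all tested (3.79%). Ino80, the ATPase gene of a chromatin remodeller, had 0 in all 3 triptolide libraries, against 26 and 41 SRPBM in control libraries. The circle of 9530077C05Rik had 0 in all triptolide libraries, against 35 and 24 SRPBM in control libraries. A circle under the joined symbol of Gm28036 and Nfs1, of which Nfs1 encodes a cysteine desulfurase for iron-sulfur clusters, had 0 in all triptolide libraries, against 26 and 16 SRPBM in control libraries. Kcnb2, a potassium channel gene, was close to this, with 0, 0 and 17 SRPBM in triptolide libraries, against 26 and 33 SRPBM in control libraries. The fitted fold changes of circles at 0 in a whole group depend on the added constant, and those with the constant of 16 are not printed.

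**Figure D5:**
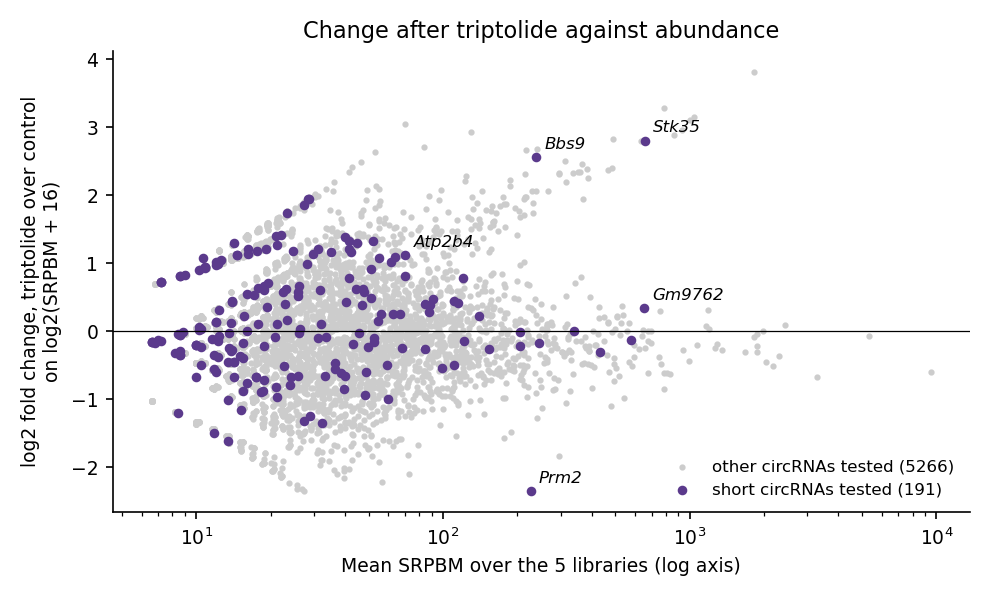
Log2 fold change (triptolide over control, on log2(SRPBM + 16)) against mean SRPBM (log axis) for the tested circRNAs, with the 191 short ones marked. Short circRNAs lie around a median of 0.04, with Prm2 at -2.35 and Stk35 and Bbs9 at 2.80 and 2.56.

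Read by the host lists, no list held a short circRNA past the threshold. Of 8 tested short circles from genes known for conserved circRNAs, 6 had a fold change above 0, with a median log2 fold change of 0.63, beside -0.06 over all circRNAs tested. The share above 0 was 52.4% of tested short circRNAs and 45.7% of all tested. In this list, Lpar1 and Mbnl2 were at 0 in both controls, so only a fold change above 0 was possible for them. Fbxw7 was at 0 in control 1. Cdyl was the most abundant after Zfp609, with 220, 194 and 43 SRPBM in triptolide libraries, against 105 and 41 SRPBM in control libraries, and its groups overlapped. For the axoneme and flagellum list, 2 of 4 were above 0 with a median of 0.03. For spermatid chromatin genes, 2 of 4 were above 0 with a median of -0.15. For the spermatid list, 1 of 3 was above 0 with a median of -0.10, and for the ubiquitin list 2 of 4 with a median of 0.19. Hook1 of the spermatid list and Ubr4 of the ubiquitin list were likewise at 0 in both controls. No test was made of a list.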

How the data were processed

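Testis RNA from 3 triptolide and 2 control libraries was depleted of ribosomal RNA and sequenced strand-specifically in read pairs, per the labels' protocols. HISAT2 2.0.1, HTSeq 0.6.1, DESeq and bedtools 2.17.0 are named, without roles, in the submitters' processing notes. Those notes give the build hg19, but the edges fitted mouse GRCm38.p6. No circRNA caller is named there.

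The authors deposited 3 tables. The circRNA table holds SRPBM, a score deposited by the authors as junction reads scaled to mapped reads. Each value equalled whole reads times a step per library, rounded down, for 100% of values. The mRNA table's expected counts and FPKM, deposited by the authors per the file headers, served only to estimate the fragment length, from transcripts of 800 to 20000 bases with FPKM above 20. The lncRNA table's expected counts, deposited by the authors, served only for overlaps. Its 5 FPKM columns were not used.

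The triptolide columns of the circRNA table share 1 header and are called A, B and C. The test was limma 3.58.1 (trend, R 4.3.3), run over every circRNA above 0 in 2 or more libraries, on log2(SRPBM + 16), with Benjamini-Hochberg adjustment over all tested and a threshold of 0.05. Fold changes on that scale understate low circRNAs. Single values per library went into exact two-sided permutations (10 assignments) or sign flips (32 patterns). Span is end minus start. Short circRNAs were named if among the 10 highest means, the 8 smallest p per direction without overlap, up to 4 per direction at 0 in a whole group, the 3 nearest either side of the limit, the 3 shortest, or from the 5 hosts with most. The members, lists and tests were chosen with earlier results of these data known. The script was tested on simulated data. Other pseudocounts (1 and 64), filters, scaling, trend and leaving out each library were tried. Junction reads per library are few for most circles, which limits precision, and read counts cover counting error only.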

Additional observations from a re-analysis of the deposited data

How the results depend on the processing

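No short circRNA passed the adjusted threshold in the limma fit as reported, but the count depended on the filter. It was 3 with no filter on low values (Stk35, Bbs9 and Prm2) and 1 among circRNAs above 0 in all 5 libraries (Prm2). Leaving out 1 library gave 0 to 3, the 3 without control 2 being Stk35, Bbs9 and Prm2. With no filter, the values and fold changes of these circles were unchanged. The SE was 0.41 for Stk35 and 0.53 for Bbs9, in place of 1.36 and 0.94. For Prm2 it was 0.53, in place of 0.44. The calls in that fit thus came with a different fitted variance, and why the variance moved was not tested. Over the 24 named and tested circles, 182 of 196 alternatives kept the direction and the side of the threshold. Leaving out 1 library gave log2 fold changes of -0.071 to 5.68 for Stk35, -0.45 to 0.20 for Pwwp2a, -0.24 to 0.27 for Atf2, -0.57 to 0.23 for the larger Atxn2l circle and -0.60 to 0.57 for Atxn2. These ranges hold the reversals, which for Stk35 came without control 1. For Atxn2 the scaling to equal summed SRPBM gave 0.060. The median log2 fold change of short circRNAs ran from -0.11 to 0.22 without 1 library. The difference in their share of SRPBM ran from 0.338 to 0.768 percentage points, the difference in number above 0 from 3 to 37.5, and the short-minus-other difference from 0.09 to 0.27. No paired analysis was possible because the triptolide columns of the circRNA table carry no replicate numbers. A count model on whole reads was not run, and values of 1 read are missing from the deposited values. Most short circles rest on few reads, and 3 libraries against 2 cannot give an exact p below 0.1.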
